A study of Mus musculus with 60 samples.

Results

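The 9 genes described here encode transporters that fill synaptic vesicles and the SV2 proteins of those vesicles. They are the vesicular glutamate transporters Slc17a7 (VGLUT1), Slc17a6 (VGLUT2) and Slc17a8 (VGLUT3), the vesicular GABA transporter Slc32a1 (VGAT), the vesicular zinc transporter Slc30a3 (ZnT3), the vesicular neutral amino acid transporter Slc6a17 (NTT4), and the SV2 vesicle glycoproteins Sv2a, Sv2b and Sv2c. They were 9 of 39756 genes in the table of cortical cultures and 9 of 40645 genes in the hippocampus table. The genes were chosen by family and with their levels in these same libraries in view: over E15 and the days in culture, over siRNA and BDNF, as the Slc17a7 to Slc17a6 ratio, and as reads per gene over P10, P15 and P21. Because the genes were chosen on these values, they are given as a description, with no test. The same holds for groups said not to overlap, since the share of all genes without overlap was not counted. Tests were kept for the hippocampal genotype, for the split of reads between transcripts of 1 gene, which the choice did not use, and for 56 other genes of vesicle filling. That list was also drawn up with earlier results of these data known, so its calls are not independent of them.

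The 48 culture libraries came from wild-type mouse cerebral cortex. Per the labels, neurons were prepared from E18 mouse embryos, whereas the study's methods give rat embryos and its legends mouse cultures, in one place from E15, and 2 E15 libraries stood for the day of plating. Cultures received a pool of paxillin siRNAs (PXN) or scrambled siRNA (SC) at DIV2 (days in vitro), with or without 20 ng/ml BDNF, a neurotrophin, from the same day. Without BDNF there were 3, 4 and 3 SC libraries and 5, 6 and 4 PXN libraries at DIV3, DIV5 and DIV10. With BDNF there were 3, 4 and 3 SC libraries and 4, 5 and 2 PXN libraries at the same days. Culture numbers 10 and 11 occurred in PXN groups only, so at each day part of the PXN libraries had no SC partner. The 12 hippocampus libraries were 2 of each genotype at P10, P15 and P21, all on a C57BL/6J background. The S119A genotype, labelled paxillin KO and paxillin-S119A KI, carried Nestin-CreERT2, a tamoxifen-inducible Cre of neural lineage cells, over 1 floxed and 1 S119A paxillin allele, so that Cre deletes the first and turns on the second. The controls are labelled wild type, while the study also describes Cre-negative littermates with the same 2 alleles, and tamoxifen was given to both. Bulk hippocampus mixes cells with and without Cre, and the labels do not say whether libraries came from separate animals, so p-values measure only the spread between these libraries.

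TPM, length-scaled transcript levels, were set to a sum of 1000000 in every culture library, so the number of reads behind them is unknown, and 20878 to 23585 genes were above 0 per library. The hippocampus libraries held 3162777 to 5687908 long reads. Pxn, the siRNA target, lay at 8.43 to 9.83 TPM in the 6 PXN libraries at DIV5 and at 12.4 to 19.9 TPM in the 4 SC libraries. At DIV3 the groups overlapped (7.79 to 11.4 against 9.16 to 11.7 TPM). At DIV10 Pxn was 8.99, 19.9 and 9.93 TPM in the SC libraries and 18.8, 13.4, 13.2 and 11.5 TPM in the PXN libraries, so at DIV3 and DIV10 its level did not follow the siRNA label. The groups are accordingly called libraries labelled paxillin siRNA. The summed TPM of 9 astrocyte markers was 333 to 922 in DIV3 SC libraries and 1587 to 8091 at DIV10, and that of 8 general neuron markers went from 4278 to 5456 down to 1369 to 2340. In hippocampus the P15 and P21 libraries numbered 2 stood apart. Between 24.3% and 30.1% of 13561 genes differed more than 2-fold from the library numbered 1 of the same age and genotype, against 3.10% and 3.21% at P10. In both kinds of bulk sample, fewer cells of a type and less RNA per cell cannot be told apart.

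A vesicular transporter uses the proton gradient made by the vesicle's V-ATPase to concentrate transmitter from the cytosol. VGLUT1 is the main glutamate transporter of cortical and hippocampal pyramidal cells, VGLUT2 is abundant in thalamic and other subcortical neurons and early in cortical development, and VGLUT3 marks small groups of neurons that also use other transmitters. VGAT fills vesicles with GABA and glycine in inhibitory neurons. ZnT3 loads zinc into a subset of glutamatergic vesicles, most of all in hippocampal mossy fibres. SV2 proteins sit in nearly all synaptic vesicles, take part in the release step, and SV2A binds the antiepileptic drug levetiracetam.

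Slc17a7, Slc17a6 and Sv2b lie on the same chromosome. Sv2b has more than 2 start sites in RefSeq, and the use of the 2 that begin its main transcripts is compared at the end. The 250 bases ahead of the start sites that these results turn on are shown from RefSeq, build GRCm38.p6, read 5′ to 3′ on the gene's strand so that the start site follows the last base. Capitals mark the GC box (GGGCGG or its reverse complement) in the first pair of sequences and the TATA-type hexamer TATAAA (or its reverse complement) in the second pair. The windows are chr7:45163671-45163920 (+) for Slc17a7, chr7:51621580-51621829 (+) for Slc17a6, chr7:75309263-75309512 (−) for the outer and chr7:75308387-75308636 (−) for the inner Sv2b start site.
Slc17a7: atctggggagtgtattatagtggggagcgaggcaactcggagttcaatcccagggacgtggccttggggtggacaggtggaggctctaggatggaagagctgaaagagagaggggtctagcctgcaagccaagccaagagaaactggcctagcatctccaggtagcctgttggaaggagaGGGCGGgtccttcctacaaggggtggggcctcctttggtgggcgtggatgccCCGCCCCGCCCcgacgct
Slc17a6: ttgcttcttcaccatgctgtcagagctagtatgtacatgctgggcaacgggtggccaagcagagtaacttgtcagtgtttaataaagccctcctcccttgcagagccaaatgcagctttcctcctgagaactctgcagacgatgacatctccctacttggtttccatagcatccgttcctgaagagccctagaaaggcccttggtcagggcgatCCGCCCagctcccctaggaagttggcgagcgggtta
Sv2b outer start (NM_153579.4): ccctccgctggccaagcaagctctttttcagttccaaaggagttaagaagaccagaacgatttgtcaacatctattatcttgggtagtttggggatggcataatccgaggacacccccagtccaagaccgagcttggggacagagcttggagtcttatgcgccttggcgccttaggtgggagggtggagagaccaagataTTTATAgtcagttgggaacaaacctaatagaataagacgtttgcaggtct
Sv2b inner start (NM_001109753.1): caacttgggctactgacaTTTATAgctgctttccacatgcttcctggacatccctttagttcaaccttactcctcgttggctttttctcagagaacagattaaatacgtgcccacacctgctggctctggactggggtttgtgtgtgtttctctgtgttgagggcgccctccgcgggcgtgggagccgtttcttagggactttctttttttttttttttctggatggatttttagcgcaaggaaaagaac

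The Slc17a7 window held 3 GC boxes, beginning 70, 18 and 13 bases before the start site, the last 2 of which share 1 base. The Slc17a6 window held 1, beginning 36 bases before the start. Over all 32841 promoter windows of this table and length, 32.7% held a GC box on either strand. TATAAA began 50 bases before the outer and 232 bases before the inner Sv2b start, and 12.4% of all windows held it. The inner Sv2b window lies within the first intron of the transcript that begins at the outer site. GC content was 61.2% for Slc17a7, 53.2% for Slc17a6, and 48.8% and 47.2% for the outer and inner Sv2b windows, beside a median of 52.4% over all windows. Among the 16 windows of the 9 genes, 5 held a GC box, 3 held TATAAA, 2 held TGACG, 1 held the E-box CACGTG, and 0 held TGACGTCA. The shares of all windows were 17.8% for TGACG, 6.02% for CACGTG and 1.55% for TGACGTCA.

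On the TPM scale, which is per transcript length, Sv2a was the most abundant of the 9 transcripts at E15 (mean 180 TPM, n = 2) and in DIV3 SC libraries (289 TPM, n = 3). At DIV3 it was followed by Slc6a17, Slc17a7 and Slc32a1 at means of 94.4, 93.6 and 64.4 TPM, whose ranges overlapped, then by Slc17a6 at 14.8 TPM, and by Sv2b, Slc17a8, Slc30a3 and Sv2c at 2.72 to 0.615 TPM. At DIV10 Slc17a7 had the highest mean, 990 TPM, but its range overlapped those of Sv2a (431 TPM) and Slc32a1 (243 TPM). Slc6a17 (136 TPM) lay below every Slc17a7 value. Slc30a3 (35.3 TPM), Sv2b (29.6 TPM) and Slc17a6 (9.27 TPM) came next, and Sv2c and Slc17a8 stayed lowest at 1.76 and 1.25 TPM. Slc17a8 reached 1 TPM in 25 of the 48 libraries and Sv2c in 15.

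Slc17a7 climbed through culture. It was at 62.8 and 41.5 TPM in the E15 libraries and at 115, 112 and 53.3 TPM in cultures 1, 2 and 3 at DIV3. It reached 366, 325, 148.05 and 188 TPM in cultures 1 to 4 at DIV5, and 1699, 417 and 854 TPM in cultures 1, 3 and 6 at DIV10. Every DIV10 library was above every DIV3 library, and culture 3 was lowest at each day. On the log2(TPM + 1) scale the DIV10 mean was higher than the DIV3 mean by 3.24 ± 0.53 (standard error from the limma fit, as for all such values that follow).

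Slc17a6 showed no such climb. It was at 15.2 and 26.6 TPM at E15, at 14.7, 14.1 and 15.6 TPM at DIV3, at 14.3, 8.67, 12.2 and 4.07 TPM at DIV5, and at 7.35, 15.6 and 4.82 TPM at DIV10. Culture 3 kept 12.2 to 15.6 TPM at all 3 days, while the other 2 DIV10 cultures lay below every DIV3 library. The DIV3 to DIV10 difference of −0.76 ± 0.50 was small beside the spread between cultures.

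The Slc17a7 to Slc17a6 ratio joined these values within each library. It was 4.13 and 1.56 at E15, 7.84, 7.98 and 3.42 at DIV3, 25.6, 37.5, 12.2 and 46.2 at DIV5, and 231, 26.7 and 177 at DIV10. Each SC library at DIV5 was above each at DIV3, and DIV5 and DIV10 overlapped through culture 3. The mean log2 ratio was 2.50 (SD 0.69, n = 3) at DIV3 and 6.51 (SD 1.62, n = 3) at DIV10, a difference of 4.003 that ranged from 3.42 to 4.93 when 1 library at a time was left out. The numerator carried most of it, since Slc17a7 differed by 3.24 and Slc17a6 by −0.76 on the log2 scale.

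**Figure D1:**
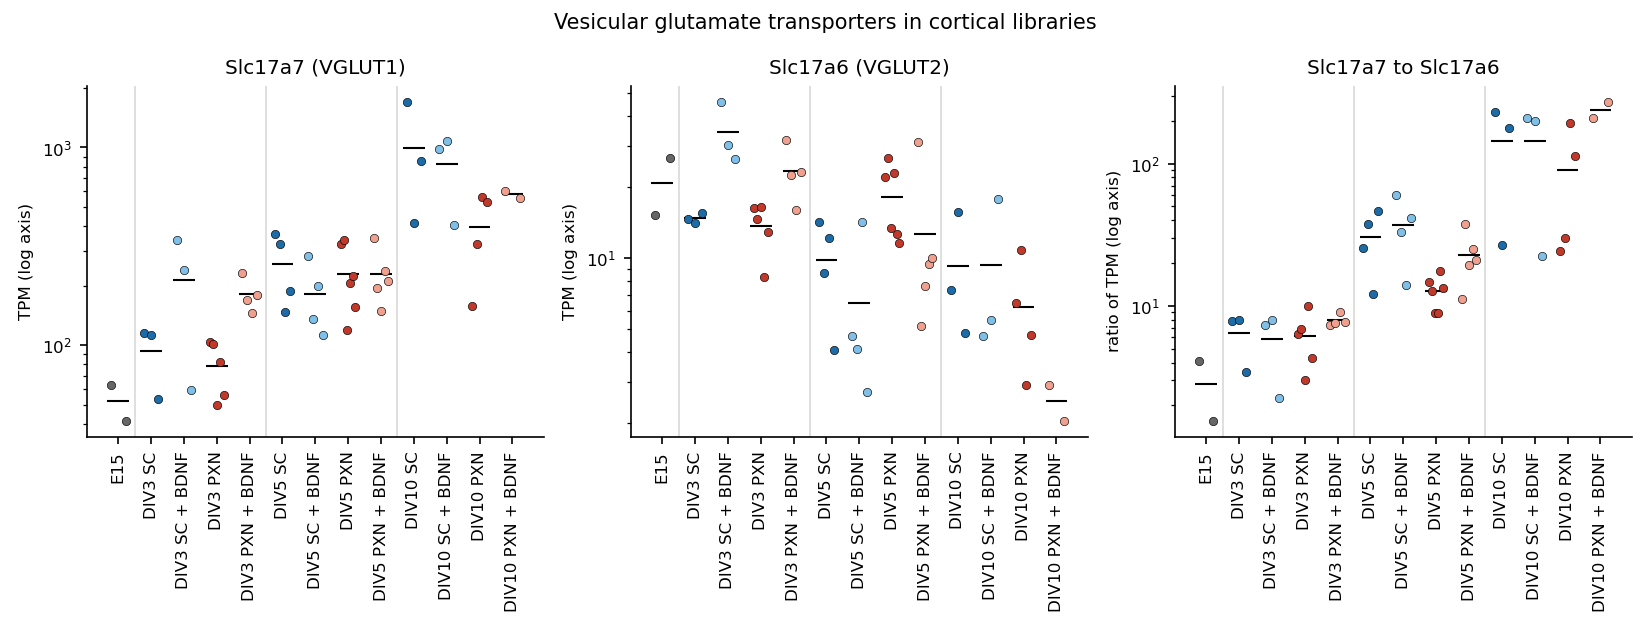
Slc17a7 and Slc17a6 levels and their ratio in each culture library by group, on log axes, with a horizontal bar at each group's arithmetic mean. Slc17a7 in SC libraries runs from 53.3 to 115 TPM at DIV3 and from 417 to 1699 TPM at DIV10, while Slc17a6 stays between 4.07 and 15.6 TPM from DIV3 to DIV10.

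Slc17a8 stayed low throughout. It was at 0.220 and 1.34 TPM at E15, at 1.53, 1.49 and 1.82 TPM at DIV3, and at 1.11, 0.815 and 1.83 TPM at DIV10, with overlapping groups at DIV3 and DIV10.

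Slc32a1 varied more between cultures than between days. The E15 libraries had 36.9 and 81.5 TPM, the DIV3 libraries 87.4, 53.0 and 52.7 TPM, and the DIV5 libraries 220, 187, 48.03 and 139 TPM. At DIV10 cultures 1, 3 and 6 had 483, 27.9 and 220 TPM, so culture 3 was below every DIV3 library and the others above. The DIV3 to DIV10 difference was 1.20 ± 0.93, and 2.36 without the DIV10 library of culture 3. Gad1, a GABA-synthesizing enzyme, was 15.4 TPM in that library and 90.1 and 54.8 TPM in the other 2. The summed level of 10 interneuron markers was 180 TPM there against 1247 and 1539 TPM, and their part in the Slc32a1 values was not tested.

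Slc30a3 was close to absent at first. It was at 0.308 and 0.590 TPM at E15, at 1.49, 1.65 and 0.489 TPM at DIV3, at 18.05, 5.22, 2.09 and 3.12 TPM at DIV5, and at 71.6, 17.6 and 16.8 TPM at DIV10. All DIV10 libraries were above all DIV3 libraries, by 3.75 ± 0.70 between the means. In that same comparison Sv2b went from 2.63, 4.196 and 1.32 TPM to 48.6, 10.1 and 30.2 TPM, a difference of 2.87 ± 0.55 with no overlap. Sv2b had been at 5.66 and 5.19 TPM at E15, above every DIV3 library (difference −0.87 ± 0.61 from E15 to DIV3).

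The other 3 genes moved less. From DIV3 to DIV10 the differences were 0.50 ± 0.33 for Slc6a17, 0.44 ± 0.37 for Sv2a and 0.60 ± 0.34 for Sv2c, and each gene's groups overlapped. From E15 to DIV3, Slc6a17 went from 52.7 and 44.4 TPM to 73.96, 71.9 and 137 TPM (0.88 ± 0.37), and Sv2a from 151 and 210 TPM to 297, 278 and 292 TPM (0.69 ± 0.41), both without overlap.

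**Figure D2:**
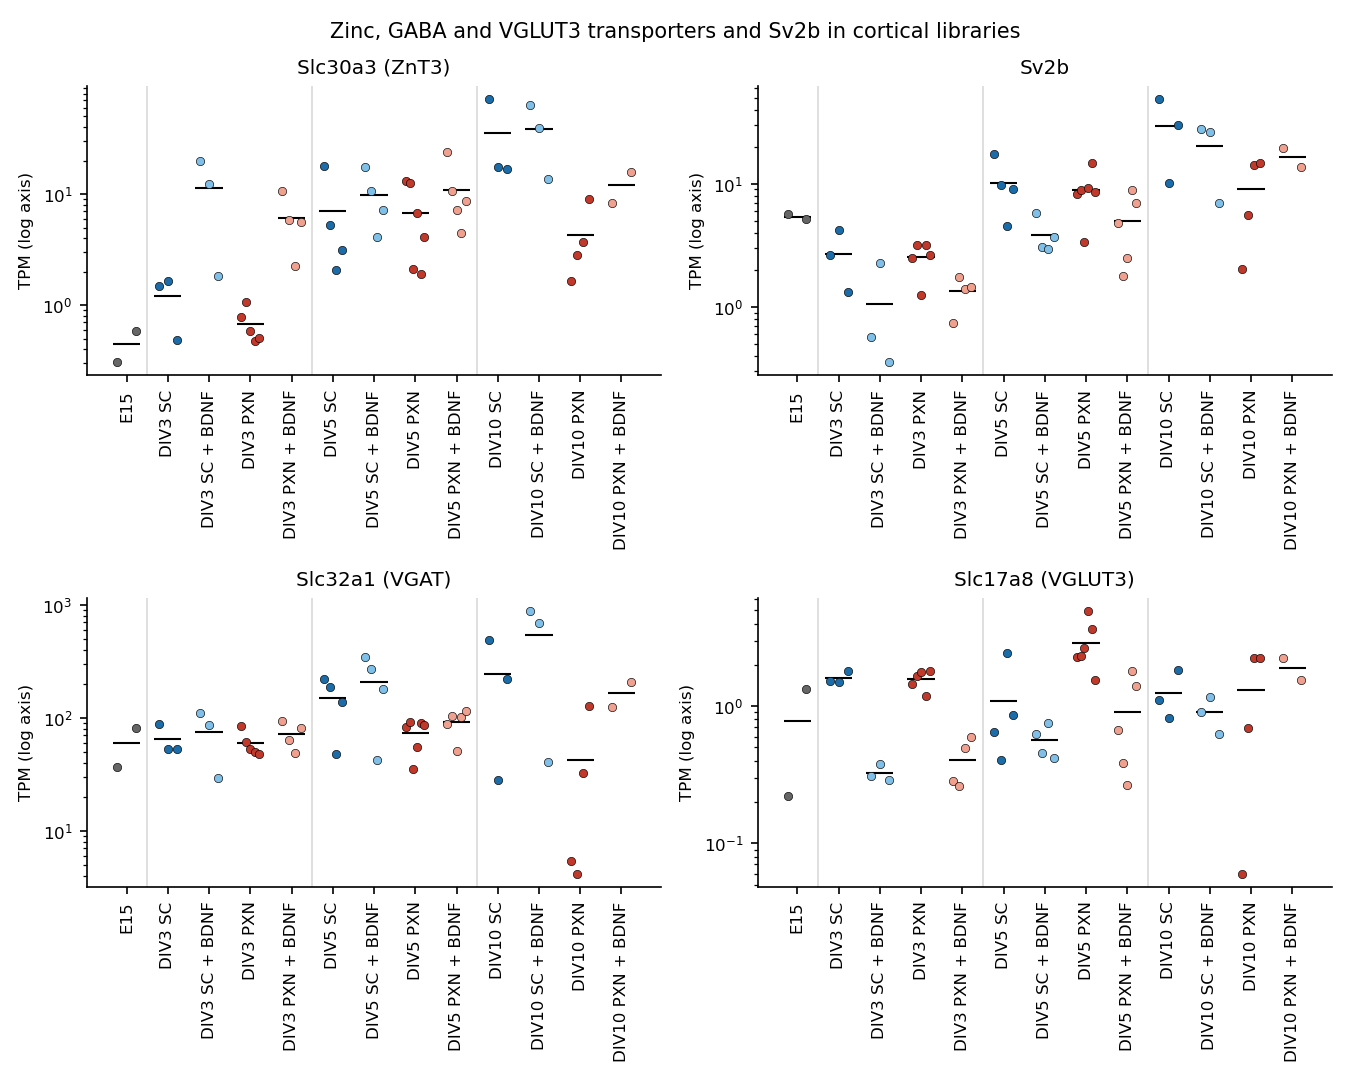
TPM of genes other than Slc17a7 and Slc17a6 in each culture library by group, on log axes, with a horizontal bar at each group's arithmetic mean. Slc30a3 and Sv2b are higher in every DIV10 SC library (16.8 to 71.6 and 10.1 to 48.6 TPM) than in any DIV3 SC library, whereas Slc32a1 at DIV10 spans 27.9 to 483 TPM.

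Several genes followed one another across the 48 libraries, which share days, treatments and cultures, so the following values of Pearson's r on log2(TPM + 1) are a description only. Among the 9 genes, r was 0.854 for Slc17a7 with Slc30a3, 0.855 for Slc32a1 with Sv2c, 0.740 for Slc17a7 with Sv2b and −0.510 for Slc17a6 with Sv2b. Among all 14250 genes, those most alike to Slc17a7 were Thy1 (0.937), Pacsin1 (0.930) and Cx3cl1 (0.927). For Slc30a3 they were Cx3cl1 (0.925), Ephx4 (0.892) and Pacsin1 (0.887). Slc32a1 was most alike to Nrxn3 (0.944) and to the GABA-synthesizing enzymes Gad1 (0.920) and Gad2 (0.918), and Slc17a6 to Plk2 (0.857), Zbtb34 (0.856) and Slc22a15 (0.852).

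At DIV3, 1 day after siRNA was added, PXN over SC was 0.902 to 0.936 for Slc17a7 and 1.04 to 1.12 for Slc17a6 in the 3 cultures with both. Slc30a3 differed more, at 0.524 and 0.645 times SC in cultures 1 and 2 and 1.19 times in culture 3, and with BDNF at 0.541 and 0.481 times in cultures 1 and 2. Over all PXN libraries at DIV3, Slc17a7 was 104, 102, 49.9, 82.3 and 55.7 TPM in cultures 1, 2, 3, 10 and 11.

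At DIV5, where Pxn was lower in every PXN library than in any SC library, Slc17a6 and Slc17a8 were higher and Slc32a1 and Sv2c lower on average. Slc17a6 had a lowest, median and highest value of 11.6, 17.8 and 26.6 TPM in the 6 PXN libraries, against 14.3, 8.67, 12.2 and 4.07 TPM in the SC libraries. Slc17a8 had 1.54, 2.50 and 4.97 TPM against 0.646, 0.408, 2.43 and 0.856 TPM. Slc32a1 had 35.3, 84.7 and 91.3 TPM against 220, 187, 48.03 and 139 TPM. The groups overlapped for all 3 genes, through SC culture 3 alone for Slc17a8 and Slc32a1 and through cultures 1 and 3 for Slc17a6.

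The differences at DIV5 were 0.88 ± 0.40 for Slc17a6, 0.94 ± 0.26 for Slc17a8, −0.88 ± 0.74 for Slc32a1 and −0.57 ± 0.27 for Sv2c. Within the 4 cultures that had both siRNAs, PXN was above SC in 4 of 4 for Slc17a6 (1.10 to 5.66 times) and Slc17a8 (1.10 to 5.81 times). It was below SC in 4 of 4 for Slc32a1 (0.378 to 0.736 times) and Sv2c (0.376 to 0.548 times). Slc17a7 (−0.17 ± 0.42), Slc30a3 (0.04 ± 0.55), Sv2b (−0.15 ± 0.43), Sv2a (0.09 ± 0.29) and Slc6a17 (0.23 ± 0.26) showed differences no larger than their standard errors. The Slc17a7 to Slc17a6 ratio was accordingly 8.85, 13.1 and 17.7 (lowest, median, highest) with PXN against 25.6, 37.5, 12.2 and 46.2 with SC, and lower in 4 of 4 cultures.

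Cell type markers moved with these values at DIV5. The summed astrocyte markers were 1106 to 1999 TPM in PXN libraries and 4278, 7097, 1379 and 8368 TPM in SC cultures 1 to 4, and the interneuron markers 652 to 1266 against 1388 to 2146 TPM. Excitatory neuron markers summed to 1132 to 2374 TPM with PXN (median 1787) against 664 to 2346 TPM with SC (median 796), and general neuron markers to 2797 to 4282 TPM (median 3394) against 1713 to 4102 TPM (median 2182). SC culture 3, the one within the PXN range for Slc17a8 and Slc32a1, was also the one within their range of the astrocyte sum. The part of these markers in the differences was not tested. With BDNF at DIV5, Pxn itself overlapped between the siRNAs, at 8.74 to 13.8 TPM with PXN and 10.0 to 19.0 TPM with SC. In that comparison Slc17a6 (0.85 ± 0.41) and Slc32a1 (−0.88 ± 0.76) differed in the same directions as without BDNF, with overlapping groups. By culture number, Slc17a6 was 1.25 to 6.63 times and Slc32a1 0.257 to 0.382 times the SC level in 3 of 3. Culture numbers were not taken to pair libraries in this comparison, so these ratios are a description. Slc17a8, higher with PXN without BDNF, was lower with PXN in 2 of 3 cultures with BDNF (0.629 to 1.07 times, 0.22 ± 0.27).

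At DIV10, where Pxn did not follow the label, all 9 genes had a lower mean log2 level in the libraries labelled paxillin siRNA, with the same sign after rescaling by size factors. For Slc17a8 the sign depended on the libraries and the scale: its mean TPM was 1.31 with PXN and 1.25 with SC, and its log2 difference was 0.24 without PXN culture 1 and 0.41 without the libraries low in the cell cycle marker Mki67. Slc30a3 was at 1.65, 2.86, 3.72 and 8.97 TPM in PXN cultures 1, 2, 10 and 11 and at 71.6, 17.6 and 16.8 TPM in the SC libraries, with no overlap (−2.62 ± 0.65). Slc32a1 was at 5.42, 4.18, 32.7 and 127 TPM against 483, 27.9 and 220 TPM (−2.90 ± 0.87), and overlapped through SC culture 3. Slc17a7 was at 158, 324, 562 and 532 TPM against 1699, 417 and 854 TPM (−1.26 ± 0.49), with overlap through that same culture. The other differences were −1.64 ± 0.51 for Sv2b, −1.05 ± 0.34 for Sv2a, −0.95 ± 0.32 for Sv2c, −0.91 ± 0.31 for Slc6a17, −0.48 ± 0.47 for Slc17a6 and −0.09 ± 0.31 for Slc17a8. The ratio of Slc17a7 to Slc17a6 was 24.4, 29.8, 192 and 113 with PXN and 231, 26.7 and 177 with SC, and the groups overlapped.

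The 2 PXN libraries with the lowest values, cultures 1 and 2, also had little of the cell cycle marker Mki67 (1.28 and 2.10 TPM), as had SC culture 3 (3.34 TPM), while the other DIV10 libraries without BDNF had 59.5 to 103 TPM. In these cultures 1 and 2, Gad1 was 2.17 and 2.35 TPM against 17.1 and 51.7 TPM in cultures 10 and 11, and the 8 general neuron markers summed to 529 and 913 TPM against 1966 to 2388 TPM. Without all DIV10 libraries under 10 TPM of Mki67 the differences were −2.39 for Slc30a3, −2.32 for Slc32a1, −1.35 for Sv2b and −1.14 for Slc17a7. Without cultures 10 and 11 they were −3.17, −4.66, −2.53 and −1.90 in the same order, and 0.02 for Slc17a6. The part of these markers in the differences was not tested.

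BDNF at DIV3 went with differences of opposite sign among the 9 genes. In cultures 1, 2 and 3 with SC, Slc30a3 was at 1.49, 1.65 and 0.489 TPM without BDNF and at 19.8, 12.3 and 1.85 TPM with it. Slc17a6 was at 14.7, 14.1 and 15.6 TPM without and at 45.9, 30.2 and 26.2 TPM with BDNF. Slc17a8 was at 1.53, 1.49 and 1.82 TPM without and at 0.307, 0.378 and 0.288 TPM with BDNF. None of these 3 genes overlapped between the groups, and Slc30a3 and Slc17a6 were on the high side with BDNF while Slc17a8 was on the low side. How many of all genes did not overlap in this comparison was not counted.

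The mean differences were 2.11 ± 0.70 for Slc30a3, 1.11 ± 0.50 for Slc17a6 and −0.98 ± 0.33 for Slc17a8. Sv2c, at 0.507 to 0.671 TPM without and 0.797 to 1.08 TPM with BDNF, did not overlap either (0.23 ± 0.34). Slc17a7 went from 115, 112 and 53.3 TPM to 340, 239 and 59.5 TPM (0.93 ± 0.53), and Sv2b from 2.63, 4.196 and 1.32 TPM to 0.571, 2.27 and 0.358 TPM (−0.88 ± 0.55). These groups overlapped, but each culture moved the same way, 1.12 to 2.95 times for Slc17a7 and 0.218 to 0.541 times for Sv2b. As both VGLUT genes were higher, their ratio with BDNF was 0.664 to 0.994 times that without. Cell type markers moved as well. Summed dentate and CA markers were 16.8 to 25.7 TPM without and 27.2 to 72.7 TPM with BDNF in SC libraries at DIV3, with no overlap, and interneuron markers 773 to 1479 against 1118 to 2524 TPM. Excitatory neuron markers summed to 2217, 3557 and 3396 TPM without BDNF in cultures 1, 2 and 3. With BDNF they were 1628, 2216 and 3438 TPM, lower in cultures 1 and 2. Their part in the differences was not tested.

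The libraries labelled paxillin siRNA gave like values at DIV3 in their own 4 cultures with and without BDNF. BDNF over none was 4.74 to 13.7 times for Slc30a3, against 3.79 to 13.3 with SC. It was 0.156 to 0.420 times for Slc17a8 against 0.158 to 0.253, 0.301 to 0.552 times for Sv2b, 1.53 to 1.93 times for Slc17a6 and 1.66 to 3.22 times for Slc17a7. Whether the response differed between the siRNAs was not tested.

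At DIV5, Sv2b was at 17.3, 9.80, 4.57 and 9.06 TPM without BDNF and at 5.74, 3.04, 2.94 and 3.70 TPM with it in SC cultures 1 to 4 (−1.11 ± 0.47), and lower with BDNF in 4 of 4 SC and 5 of 5 PXN cultures. Slc17a6, higher with BDNF at DIV3, was at 4.67, 4.12, 14.3 and 2.71 TPM with it against 14.3, 8.67, 12.2 and 4.07 TPM without (−0.65 ± 0.43), at 0.328 to 1.17 times. Slc30a3 was 0.967 to 2.30 times its level without BDNF (0.64 ± 0.60). Slc17a8 was lower with BDNF in 5 of 5 PXN cultures (0.0531 to 0.906 times, −1.05 ± 0.24) and in 3 of 4 SC cultures (0.309 to 1.11 times, −0.33 ± 0.28). Interneuron markers at DIV5 summed to 1388 to 2146 TPM without and 1468 to 6157 TPM with BDNF in SC libraries, and to 652 to 1266 against 1397 to 2549 TPM in PXN libraries. Excitatory neuron markers overlapped, at 664 to 2346 TPM without and 461 to 2268 TPM with BDNF in SC libraries. In PXN libraries they were 1132 to 2374 against 922 to 1907 TPM. Their part was not tested either. At DIV10, Slc32a1 was at 884, 694 and 40.7 TPM in SC cultures 1, 2 and 3 with BDNF, the last again the culture with few interneuron markers (307 TPM against 2797 and 2633 TPM), and the difference from cultures without BDNF was 1.02 ± 0.93.

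**Figure D3:**
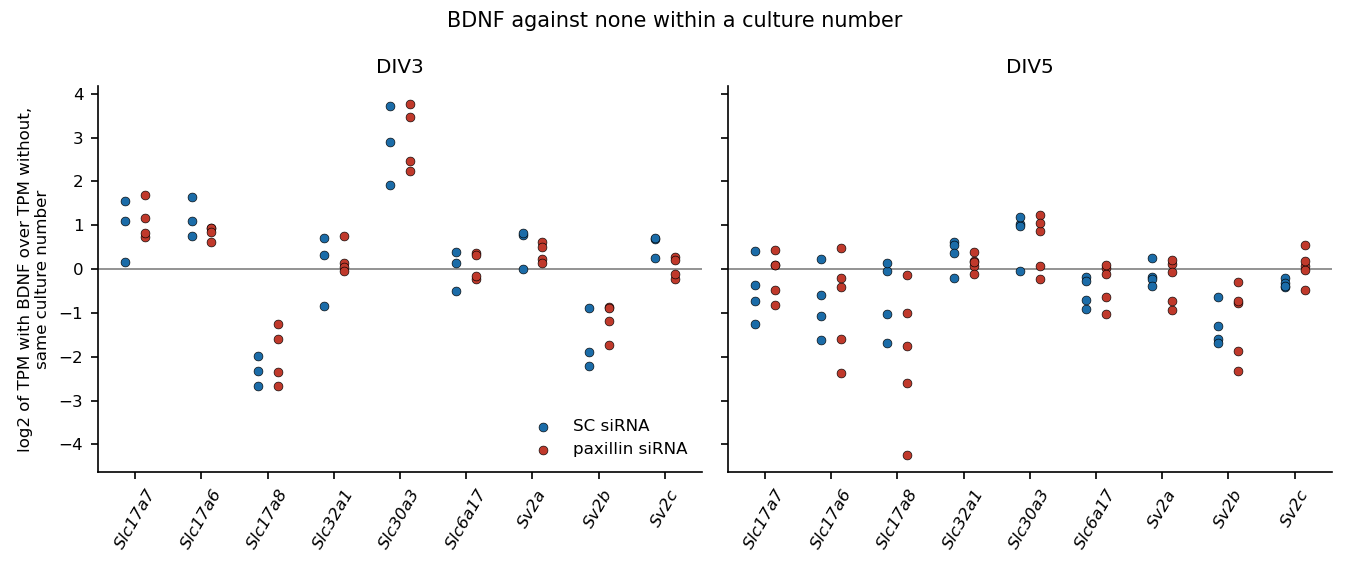
Level with BDNF over level without it in libraries of the same culture number, for each gene at DIV3 and DIV5, on a log scale. At DIV3 the ratio of each SC and PXN culture is above 1 for Slc30a3 (3.79 to 13.7 times) and below 1 for Slc17a8 and Sv2b. At DIV5 it is below 1 in each for Sv2b.

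The other genes of vesicle filling put these values in context. They were listed with earlier results of these data known, so their counts are no independent support. The list held 56 genes other than the 9, in 4 groups: 18 for vesicle loading (the V-ATPase, monoamine and other vesicle carriers), 19 vesicle and release proteins, 12 for transmitter supply and 7 for zinc handling. Of these, 54 were tested among 14250 genes in the cultures. Genes with a limma adjusted p under 0.05 were called. From E15 to DIV3, 2 rose and 0 fell, beside the 8.11% called among all genes. Scamp5, a vesicle membrane protein, went from 96.0 ± 6.57 (SD, n = 2) to 202 ± 42.1 TPM (SD, n = 3; log2 difference 1.04 ± 0.27, limma adjusted p = 0.0150). Slc1a1, a neuronal glutamate uptake carrier, went from 12.5 ± 0.392 to 29.2 ± 1.74 TPM (1.16 ± 0.36, limma adjusted p = 0.0407). The count was 0 without SC culture 3 or without E15 library 2, and 1 without SC culture 1 or 2. From DIV3 to DIV10, 19 rose and 1 fell, or 20 of 54 beside 35.2% of all genes, with 9 of 19 vesicle proteins, 5 of 12 supply genes, 3 of 7 zinc genes and 3 of the loading genes among them. The metallothioneins Mt1 (4.39 ± 0.56, limma adjusted p = 2.24e-07) and Mt2 (4.01 ± 0.53, limma adjusted p = 5.19e-07), zinc-binding proteins also made by astrocytes, rose most. Slc10a4, a vesicle carrier of monoaminergic and cholinergic neurons, fell (−1.37 ± 0.52, limma adjusted p = 0.0385). The list's median log2 difference was 0.36, beside −0.04 over all genes.

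Between the siRNAs, 1 of the 54 fell at DIV5 and 0 rose, beside 6.18% of all genes. Abat, the enzyme that breaks down GABA, was at 25.4 ± 7.14 TPM (SD, n = 4) with SC and at 14.3 ± 1.66 TPM (SD, n = 6) with PXN (−0.74 ± 0.22, limma adjusted p = 0.0412). When cultures entered the fit as a block by number, 9 were called, 2 higher and 7 lower, beside 22.7% of all genes. Without 1 library the count was 7 without SC culture 3, 2 without PXN culture 11, and 0 without any other single library. The list's median was −0.06 and that of all genes −0.08. Of all genes called, 12.95% were higher with PXN, and 36.8% after rescaling by size factors, when Abat was no longer called. At DIV5 with BDNF 1 rose, Stx1a, a release machinery gene chosen for naming after its value was seen (0.79 ± 0.19, limma adjusted p = 0.0442), beside 0.596% of all genes, of which 20.0% were higher, and 75% after rescaling. Its count was 3 without SC culture 3, 0 without any other single SC library or without PXN culture 1, 2, 10 or 11.

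At DIV10, 8 of the 54 fell and 0 rose in the libraries labelled paxillin siRNA, beside 2.58% of all genes, with a list median of −0.60 against −0.06. They were 6 vesicle proteins, 1 loading gene and 1 supply gene. After rescaling 4 fell and 1 rose, with neither Syt1 nor Syngr1 among them, and the share of higher genes among all called went from 15.5% to 53.4%. Syt1, the calcium sensor of release, was at 39.5 ± 20.5 TPM (SD, n = 3) with SC and 13.6 ± 5.34 TPM (SD, n = 4) with PXN (−1.42 ± 0.37, limma adjusted p = 0.0401), and Syngr1, a vesicle protein, at 332 ± 102 and 158 ± 56.7 TPM (−1.09 ± 0.28, limma adjusted p = 0.0393). The count hung on single libraries: it was 0 without PXN culture 1, PXN culture 2 or SC culture 1, 1 without SC culture 6, and 24, 27 and 28 without PXN culture 10, PXN culture 11 and SC culture 3. It was 1, beside 0.365% of all genes, without the libraries low in Mki67, and 34, beside 36.9%, without cultures 10 and 11.

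With BDNF at DIV3, 1 of the 54 rose and 0 fell, beside 1.21% of all genes. Rab3c, a small GTPase of synaptic vesicles, was at 20.5 ± 4.63 TPM without and 54.4 ± 29.2 TPM with BDNF (SD, n = 3 each; 1.26 ± 0.32, limma adjusted p = 0.0328). The same block by culture gave 5, beside 4.01% of all genes. The count was 0 without BDNF culture 1 or 3 or without SC culture 1 or 2. At DIV5 limma called 0 of the 54 beside 0.0491% of all genes, of which 1268 had an unadjusted p under 0.05, and 1 of the 54, beside 0.940%, with the block (Stx1a, −0.67, adjusted p = 0.0373). Without BDNF culture 3 or without SC culture 4 it also called 1.

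In hippocampus, reads per gene were not divided by transcript length, so levels are compared between ages for 1 gene at a time. Slc17a6 reads in libraries 1 and 2 of the controls were 224 and 301 at P10, 123 and 43 at P15, and 48 and 7 at P21. In S119A they were 184 and 237, 103 and 25, and 59 and 41. All 4 libraries at P10 were above all at P15, which overlapped with P21, and in reads per 1000000 library reads (RPM) the means were 44.1 ± 8.00, 14.4 ± 7.13 and 8.77 ± 5.22 (SD, n = 4 each, both genotypes).

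Slc17a7 had 7404 and 6415, 12110 and 8143, and 11522 and 3940 reads in controls at the same ages, and 7095 and 6713, 12411 and 5833, and 9446 and 6385 in S119A. In RPM it was 1295 ± 104 at P10, 1994 ± 306 at P15 and 1785 ± 632 at P21 (SD, n = 4 each), so that P15 was above P10 without overlap and P21 spread over both. The ratio of Slc17a7 to Slc17a6 reads was 21.3 to 38.6 at P10, 98.5 to 233 at P15 and 156 to 563 at P21, with P10 apart from both later ages. Within the controls, P21 minus P10 was −2.99 ± 0.73 for Slc17a6 and 0.47 ± 0.35 for Slc17a7 on edgeR's log2 scale, and −2.30 and 0.89 without the libraries numbered 2 of P15 and P21.

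Slc30a3 had 227 and 209 reads in the P10 controls and 456 and 269 in the P21 controls, with 166 and 250, and 285 and 546, in S119A. In RPM its mean was 39.8 ± 5.69 at P10, 78.9 ± 21.3 at P15 and 88.9 ± 21.2 at P21 (SD, n = 4 each), and P10 lay below both later ages in all libraries. The P21 minus P10 difference was 1.12 ± 0.32 in controls, 1.20 ± 0.32 in S119A and 1.22 in controls without the libraries numbered 2. Sv2a also lay below its later levels at P10 (167 ± 17.3 RPM, against 332 ± 115 and 302 ± 71.5), and Sv2b did not (132 ± 11.2, 124 ± 40.6 and 144 ± 31.8). Both readings hung on the P15 and P21 libraries numbered 2. Without them, P21 minus P10 in controls was 0.33 for Sv2a, beside 0.63 with them. For Sv2b it was 0.24, beside −0.01 with them. The P15 and P21 libraries numbered 1 had 151 to 163 RPM of Sv2b, above the 121 to 143 RPM of the P10 libraries.

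Slc6a17 split by library rather than by age. It had 275 to 339 reads in the 4 P10 libraries and 376 to 507 in the later libraries numbered 1, but 47 to 66 in those numbered 2, a log2 ratio of library 2 over 1 from −2.76 to −2.41. Slc32a1 had 73 reads and Slc17a8 10 reads over all 12 libraries, and Sv2c 5 to 19 per library. Gad1 had 301 to 1071 reads per library, so few Slc32a1 reads did not go with few reads of another inhibitory neuron gene. Of the Slc32a1 reads, 94.5% were assigned to 1 predicted transcript model. The marker sums moved with age: general neuron markers were 6258 to 6598 RPM at P10 and 2802 to 3306 at P21, and oligodendrocyte markers 600 to 720 and 3505 to 5151. Their part in the age differences was not tested.

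**Figure D4:**
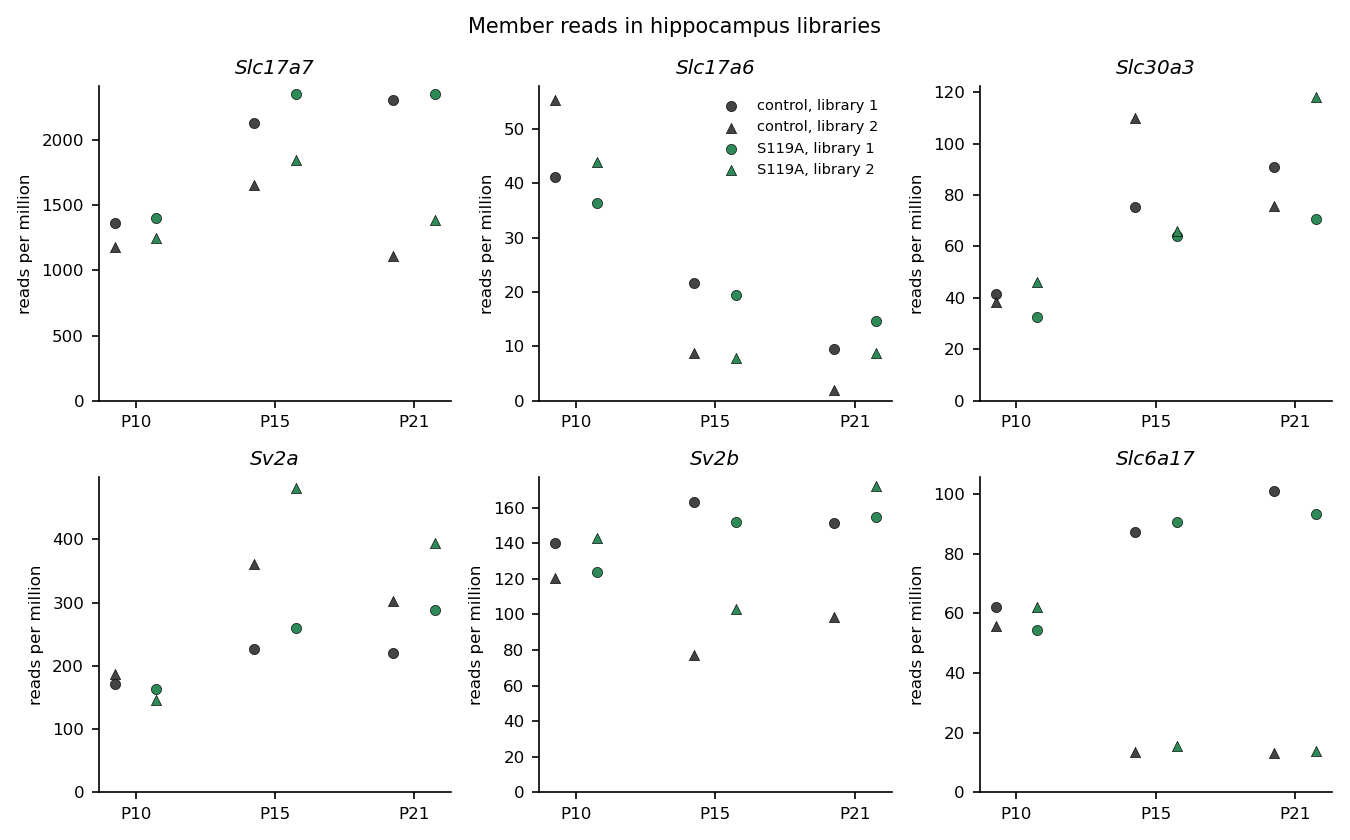
Reads per 1000000 library reads (RPM) of the genes in each hippocampus library by age and genotype, on linear axes. Slc17a6 goes from 36.3 to 55.2 RPM at P10 to 1.97 to 14.7 at P21, Slc30a3 from 32.8 to 46.3 to 70.8 to 118, and the P15 and P21 libraries numbered 2 stand low for Slc6a17.

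The S119A genotype, which played no part in the choice of the genes, was tested over all ages. Of the 8 genes that passed the filter on low counts (Slc17a8 did not), edgeR called 0, beside 0.00% of the 13561 genes tested. At an unadjusted p under 0.05 there were 126 genes, 0 of them among the 8, and DESeq2 called 0 with 99 unadjusted. S119A minus control was 0.08 ± 0.18 for Slc17a7, 0.13 ± 0.38 for Slc17a6, −0.16 ± 0.18 for Slc30a3, 0.12 ± 0.21 for Sv2a and 0.13 ± 0.17 for Sv2b on the log2 scale. Sv2c was at −0.09 ± 0.38. The standard errors of Slc6a17 (−0.04 ± 0.63) and Slc32a1 (0.15 ± 0.79) were the widest of the 8. Slc6a17 differed mainly between libraries numbered 1 and 2 of both genotypes: at P15 it was 87.2 and 13.4 RPM in controls and 90.6 and 15.5 RPM in S119A, and at P21 101 and 13.3 against 93.5 and 13.8 RPM. The log2 Slc17a7 to Slc17a6 ratio was lower by −0.20 in S119A (exact permutation test within ages, 2-sided, p = 0.657, n = 6 each). The genotype by age term from P10 to P21 called 0 of the 8 genes in edgeR, beside 0.00% of all genes (165 genes at an unadjusted p under 0.05, 0 of the 8, and 0 called with 106 unadjusted in DESeq2), with 1.18 ± 0.96 for Slc17a6. Pxn reads overlapped between the genotypes (24 to 127 in controls, 30 to 68 in S119A). They sum both alleles over cells with and without Cre and do not show the changed codon, so they were not used to check the genotype.

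Among the genes with at least 100 reads in every library (Slc17a7, Slc30a3, Sv2a and Sv2b), Sv2b alone divided its reads between 2 transcripts that each held 5% to 95%. They begin at the outer and inner start sites shown above, on chromosome 7, minus strand. In the GENCODE models of build GRCm38 the first exons span chr7:75308874-75309262 and chr7:75308205-75308379 and do not overlap, and the starts are 883 bases apart. The coding exons are the same, with 683 codons, and the transcripts are 5524 and 5307 bases long. They differ in the first, noncoding exon and by 3 bases at the far end.

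The inner-start transcript NM_001109753.1 held 19.0% and 18.1% of Sv2b reads in the P10 controls and 16.6% and 20.0% in P10 S119A. At P15 it held 25% and 27.3%, and 29.4% and 28.3%. At P21 it held 29.02% and 30.7%, and 33.1% and 33.2%. Every P15 and P21 library was above every P10 library, the libraries numbered 2 lying with those numbered 1. The Wilson 95% intervals, which cover counting error only, ran from 13.9% to 22.9% over the P10 libraries and from 25.9% to 36.9% over the P21 libraries.

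The mean was 18.4% (SD 1.44, n = 4) at P10 and 31.5% (SD 2.02, n = 4) at P21, a difference of 13.1 points (2-sided exact permutation test, p = 0.0286, the smallest that 70 arrangements allow, and 0.0286 adjusted over 2 transcripts). The outer-start transcript NM_153579.4 went from 77.8% (SD 0.71, n = 4) to 63.6% (SD 2.65, n = 4), by −14.2 points with the same exact permutation p of 0.0286. As the 2 transcripts hold nearly all Sv2b reads, these are not separate results. The total of Sv2b in RPM overlapped between the ages. Leaving out 1 library at a time gave 12.5 to 13.9 points for the inner start, and leaving out the libraries numbered 2 gave 12.7 points, where the smallest possible exact permutation p is 0.0667. With exchanges only between libraries of one number, the exact permutation p was 0.0556, again the smallest possible. Oligodendrocyte and neuron markers moved with age as above, and their part in the shares was not tested.

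By genotype, the inner start was 1.91 points higher and the outer start differed by −2.54 points in S119A (exact permutation test within ages, p = 0.0648 and 0.0278, adjusted p = 0.0648 and 0.0556, n = 6 each), which did not pass the threshold. Without the S119A library 1 of P10 both passed, with 2.48 and −2.79 points (exact permutation p = 0.00926 for each).

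**Figure D5:**
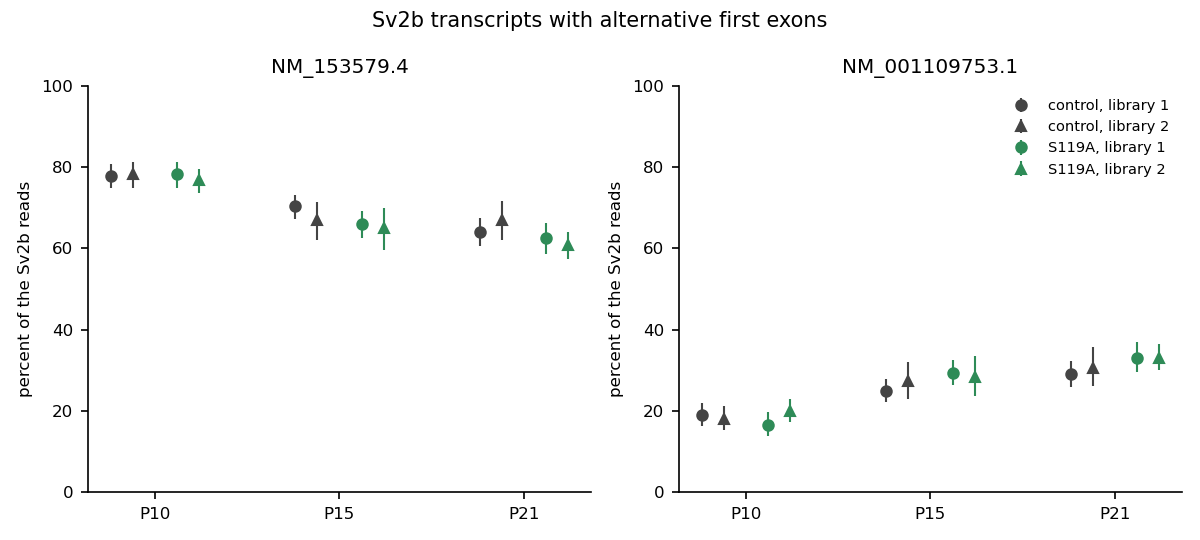
Share of Sv2b reads on the inner-start and outer-start transcripts in each hippocampus library, in percent of Sv2b reads, by age and genotype, with 95% Wilson intervals. The inner-start share is 16.6% to 20.0% in the P10 libraries and 29.02% to 33.2% in the P21 libraries.

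Of the 56 other vesicle genes, 1 fell from P10 to P21 in the controls and 0 rose, beside 1.93% of all 13561 genes in edgeR. Slc10a4 had 15.8 RPM in both P10 control libraries and 5.79 and 3.10 in the P21 control libraries (−1.75 ± 0.31, edgeR adjusted p = 0.0326), and it also fell from DIV3 to DIV10 in culture. The list's median difference was 0.22, beside −0.01 over all genes. The count was 0 when any 1 of the 4 libraries compared was left out. DESeq2 called 8, 6 higher and 2 lower, beside 5.29% of all genes. Without the P15 and P21 libraries numbered 2, edgeR called 27, 23 higher and 4 lower, beside 19.3%, where the lone P21 control library is assumed to vary like the other groups.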

How the data were processed

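Gene-level TPM of 48 culture libraries had been made by the authors with STAR 2.7.10 and RSEM 1.3.3 on GRCm38 from paired-end mRNA libraries, and were used as deposited. Counts of hippocampal long reads per transcript had been made by the authors with minimap2 on mm10, SAMtools and IsoQuant from cDNA amplified by PCR and depleted of short fragments, and were summed here per gene. Of 122459 transcripts, 119242 were matched to a gene through RefSeq, and 1.814% of reads lay on the rest. The members and the gene lists were chosen with earlier results of these data known. Named are the 9 members, Pxn, cell type markers, the 3 genes most alike to Slc17a6, Slc17a7, Slc32a1 and Slc30a3, and per comparison at most 2 rises and 2 falls of listed genes that were called without overlap. Abat and Stx1a fall outside this rule, since they were called but their groups overlapped. A result for 1 listed gene is not reported here.

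TPM were tested as log2(TPM + 1) with limma 3.58.1 over genes averaging 1 TPM or more, in 1 fit of all 48 libraries with 1 coefficient per group. Counts were tested with edgeR 4.0.16 (TMM, filterByExpr, quasi-likelihood test) in R 4.3.3, with Benjamini-Hochberg adjustment at 0.05, and DESeq2 1.42.0 as an alternative. Shares and the ratio were tested by exact permutation in SciPy 1.17.1. The scripts were tested on simulated data. Intervals cover counting error only, since PCR copies are not independent molecules. Shares are of long reads assigned to a transcript by the authors' caller, and reads cut short at the 5′ end can be assigned to the wrong start.

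Culture numbers were taken to pair libraries where every 1 of 3 or more pairs deviated together (r over 0.1 in 14250 genes). This held for siRNA at DIV5 (r of 0.244 to 0.488) and for BDNF at DIV3 (0.289 to 0.563) and DIV5 (0.511 to 0.787). It did not hold for siRNA at DIV5 with BDNF (0.0793 to 0.366), at DIV10 (1 pair, −0.435) or for DIV3 against DIV10 (2 pairs). Pairing was not checked for siRNA at DIV3 or for BDNF in PXN libraries. Ratios by culture number in all these comparisons are a description. Hippocampus numbers gave −0.0328, 0.855 and 0.841 at the 3 ages and were not used as pairs. No 2 culture libraries were duplicates (highest r 0.996).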

Additional observations from a re-analysis of the deposited data

Results flagged for a closer look

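Dixon's test of the highest and lowest library was run on 70 sets of 4 to 6 libraries, each 1 gene or the ratio within 1 group. It marked 3 values, where chance marks about 1 in 20 sets, so 3 marks are not more than chance gives. Slc17a6 was at 14.3 TPM in SC culture 3 at DIV5 with BDNF, against 2.71 to 4.67 TPM in the other 3 cultures. It was at 30.99 TPM in PXN culture 1 at DIV5 with BDNF, against 5.16 to 10.0 TPM in the other 4. Slc6a17 was at 121 TPM in PXN culture 10 at DIV3 with BDNF, against 78.04 to 83.8 TPM in the other 3.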

How the results depend on the processing

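The counts of listed vesicle genes depended on the fit. With a fit of only the groups compared they were 11 from E15 to DIV3 and 0 for siRNA at DIV5, at DIV10 and at DIV5 with BDNF, and for BDNF at DIV3. With no filter on low values they were 0 for siRNA at DIV5, 2 at DIV10, 0 at DIV5 with BDNF and 0 from P10 to P21. After rescaling they were 5 for siRNA at DIV10 and 0 at DIV5 with BDNF. Without cultures 10 and 11 they were 34 for siRNA at DIV10, and 0 for siRNA at DIV5 with BDNF and for BDNF at DIV3. Without DIV10 libraries low in Mki67, an alternative chosen after seeing the data, siRNA at DIV10 gave 1. With the replicate block they were 9 for siRNA at DIV5, 28 at DIV10, 8 at DIV5 with BDNF, 5 for BDNF at DIV3, 1 for BDNF at DIV5 and 4 from P10 to P21. The block moved no other count by more than 1.5 times, and no paired analysis was possible for E15, which shares no cultures. DESeq2 gave 8 and the fit without libraries numbered 2 gave 27 from P10 to P21. The age shares of Sv2b passed for 0 of 2 transcripts under the block and without libraries numbered 2, where the arrangements allow no smaller p. The cause of the other changes was not tested. Leaving out 1 library gave 0 to 2 listed genes from E15 to DIV3, 16 to 21 from DIV3 to DIV10, 0 to 7 for siRNA at DIV5, 0 to 28 at DIV10, 0 to 3 at DIV5 with BDNF, 0 to 1 for BDNF at either day, and 0 from P10 to P21. It gave 0 members by genotype and by its interaction with age, 0 to 2 Sv2b shares by genotype, 2 by age, a ratio difference by genotype of −0.41 to 0.00, and one from DIV3 to DIV10 of 3.42 to 4.93. Of 1070 alternative values of single genes, 1050 counted as unchanged. In culture this meant a shift within the fitted spread between libraries. In hippocampus it meant only that the gene's call stayed the same, whatever the size of the shift. There the genotype by age term ran from −1.60 to 7.21 for Slc32a1 when 1 library was left out. For Slc6a17 it ran from −2.18 to 1.96. TPM carry no depth, so low genes such as Slc17a8 and Sv2c have unknown counting error, Slc17a8 had too few hippocampal reads to be tested, and Slc32a1 so few that its errors were wide.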
